A study of Rattus norvegicus with 8 samples.

Results

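The genes described here encode 8 proteins that hold back mTOR complex 1 or act at its outlet in translation: the eIF4E-binding proteins Eif4ebp1, Eif4ebp2 and Eif4ebp3, and the upstream brakes Deptor, Ddit4, Sesn1, Tsc1 and Tsc2. They were found by their gene symbol in the platform annotation, which assigned 11 of the 31042 probe sets to them. The genes were chosen from earlier results on these same arrays, so their own levels and differences are given as a description and without a test. All 11 were bright enough to be tested, as were 16253 probe sets in all whose signal exceeded the array median on 2 or more arrays. RNA from livers of male Sprague-Dawley rats was hybridized to 8 Affymetrix oligonucleotide arrays, with 4 groups of 2. Rats of Dex+GW3965 were given GW3965, a synthetic agonist of both liver X receptors (LXRs), by gavage at 50 mg/kg over 3 days, and on the last day an intramuscular injection of 1.5 mg/kg dexamethasone, a synthetic agonist of the glucocorticoid receptor (GR). Dex received the gavage vehicle and dexamethasone, GW3965 received the agonist and saline, and vehicle received the gavage vehicle and saline. Livers were taken 24 h after the injection. Values are log2 signals, 1 per probe set and array, on which a difference of 1 is a doubling. In the labels, arrays a and b of a group carry the same liver number, whereas the methods speak of separate animals, so errors and p-values may reflect the spread between arrays only. In whole liver, fewer cells of a type and less RNA per cell cannot be told apart.

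mTOR complex 1 is a protein kinase that promotes translation and growth when amino acids and insulin are plentiful. The eIF4E-binding proteins (4E-BPs) grip the cap-binding factor eIF4E and keep it from eIF4G until the kinase phosphorylates them. The tuberous sclerosis proteins TSC1 and TSC2 switch off Rheb, the small GTPase that activates the kinase, DDIT4 (REDD1) acts through TSC2, SESN1 restrains the amino acid input through GATOR2, and DEPTOR binds mTOR itself. Glucocorticoids are known to induce Ddit4 and to slow protein synthesis in rat skeletal muscle.

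Promoter windows were matched for 6 of the 8 genes, all but Eif4ebp1 and Deptor. They ran from 250 bases before to 50 after an annotated transcript start in RefSeq on GRCr8. For Sesn1, Tsc1 and Tsc2 that start lay inside the annotated gene rather than at its boundary. The windows of Eif4ebp3, whose level differed most between groups, of Ddit4, whose difference changed direction between groups, and of Tsc1, which held the only match to a motif searched, are shown 5′ to 3′ on the strand of the gene with motif matches in capitals.
Eif4ebp3 (chr18:28540074-28540373, plus strand): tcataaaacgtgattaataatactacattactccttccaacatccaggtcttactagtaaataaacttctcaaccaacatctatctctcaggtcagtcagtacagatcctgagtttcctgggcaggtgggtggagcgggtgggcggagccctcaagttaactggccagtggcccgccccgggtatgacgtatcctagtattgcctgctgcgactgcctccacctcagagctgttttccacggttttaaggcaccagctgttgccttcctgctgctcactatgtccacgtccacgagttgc
Ddit4 (chr20:28436988-28437287, minus strand): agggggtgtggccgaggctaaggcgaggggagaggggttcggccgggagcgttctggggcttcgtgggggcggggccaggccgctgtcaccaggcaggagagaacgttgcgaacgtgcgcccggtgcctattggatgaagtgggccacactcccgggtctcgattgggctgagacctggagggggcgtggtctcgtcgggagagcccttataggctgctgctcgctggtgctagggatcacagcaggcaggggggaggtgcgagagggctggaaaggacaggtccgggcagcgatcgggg
Tsc1 (chr3:32367447-32367746, plus strand): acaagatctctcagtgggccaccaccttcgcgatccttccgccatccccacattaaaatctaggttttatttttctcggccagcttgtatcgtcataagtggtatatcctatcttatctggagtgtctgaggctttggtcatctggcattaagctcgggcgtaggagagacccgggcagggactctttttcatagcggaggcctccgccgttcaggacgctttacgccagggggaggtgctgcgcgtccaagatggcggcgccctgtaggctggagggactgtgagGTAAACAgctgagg
Both strands were searched for the glucocorticoid response hexamer AGAACA, the E-box CACGTG and the forkhead site GTAAACA. The capitals in Tsc1 mark the forkhead letters, whose first base is base 37 from the transcript start used here, and no other motif overlapped them. The other 5 windows held none of these letters. Of 33469 RefSeq promoter windows of the same length, 20.7% held the hexamer, 6.42% the E-box and 3.78% the forkhead letters, and a match or its absence in this window is a description only.

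All 3 eIF4E-binding proteins stood higher in both groups that received dexamethasone than in both groups that did not. Eif4ebp3 (1373692_at) measured 12.38 and 12.32 in Dex+GW3965, 12.61 and 12.64 in Dex, 8.36 and 8.18 in GW3965, and 8.56 and 8.74 in vehicle. No arrays of different groups overlapped, and the order was Dex, Dex+GW3965, vehicle, GW3965. Its mean was 12.62 ± 0.02 in Dex and 8.65 ± 0.12 in vehicle (SD, n = 2 each), a difference of 3.97 (SE 0.06) or 15.7-fold. Dex+GW3965 stood 3.70 (SE 0.06) above vehicle, or 13.0-fold. Among 16253 probe sets, the difference between Dex and vehicle was number 6 from the top, that between Dex+GW3965 and vehicle number 9, and that between Dex+GW3965 and GW3965, 4.08 (SE 0.06), number 3. GW3965 lay 0.38 below vehicle and Dex+GW3965 lay 0.27 below Dex, so that the agonist went with a slightly lower level at either level of dexamethasone.

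Eif4ebp1 (1386888_at), the best-known 4E-BP, measured 8.71 and 8.60 in Dex+GW3965, 8.66 and 8.74 in Dex, 8.20 and 8.21 in GW3965, and 8.10 and 8.19 in vehicle. The lowest array with dexamethasone lay above the highest without it. The differences were 0.55 (SE 0.06) for Dex and 0.51 (SE 0.06) for Dex+GW3965 against vehicle, 1.47-fold and 1.43-fold. Dex+GW3965 and Dex overlapped, and GW3965 and vehicle differed by 0.06 (SE 0.06), no more than the error. Eif4ebp2 (1375259_at) measured 10.28 and 10.25 in Dex+GW3965, 10.32 and 10.28 in Dex, 9.80 and 9.74 in GW3965, and 9.80 and 9.77 in vehicle. It showed the same division as Eif4ebp1, with differences of 0.52 (SE 0.04) for Dex and 0.48 (SE 0.04) for Dex+GW3965 against vehicle. With and without the agonist Eif4ebp2 differed by no more than the error, -0.02 (SE 0.04) for GW3965 against vehicle and -0.03 (SE 0.04) for Dex+GW3965 against Dex. Eif4ebp3 therefore differed by far more than its relatives: the group means of Eif4ebp3 spanned 4.35, those of Eif4ebp1 0.55 and those of Eif4ebp2 0.53.

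**Figure D1:**
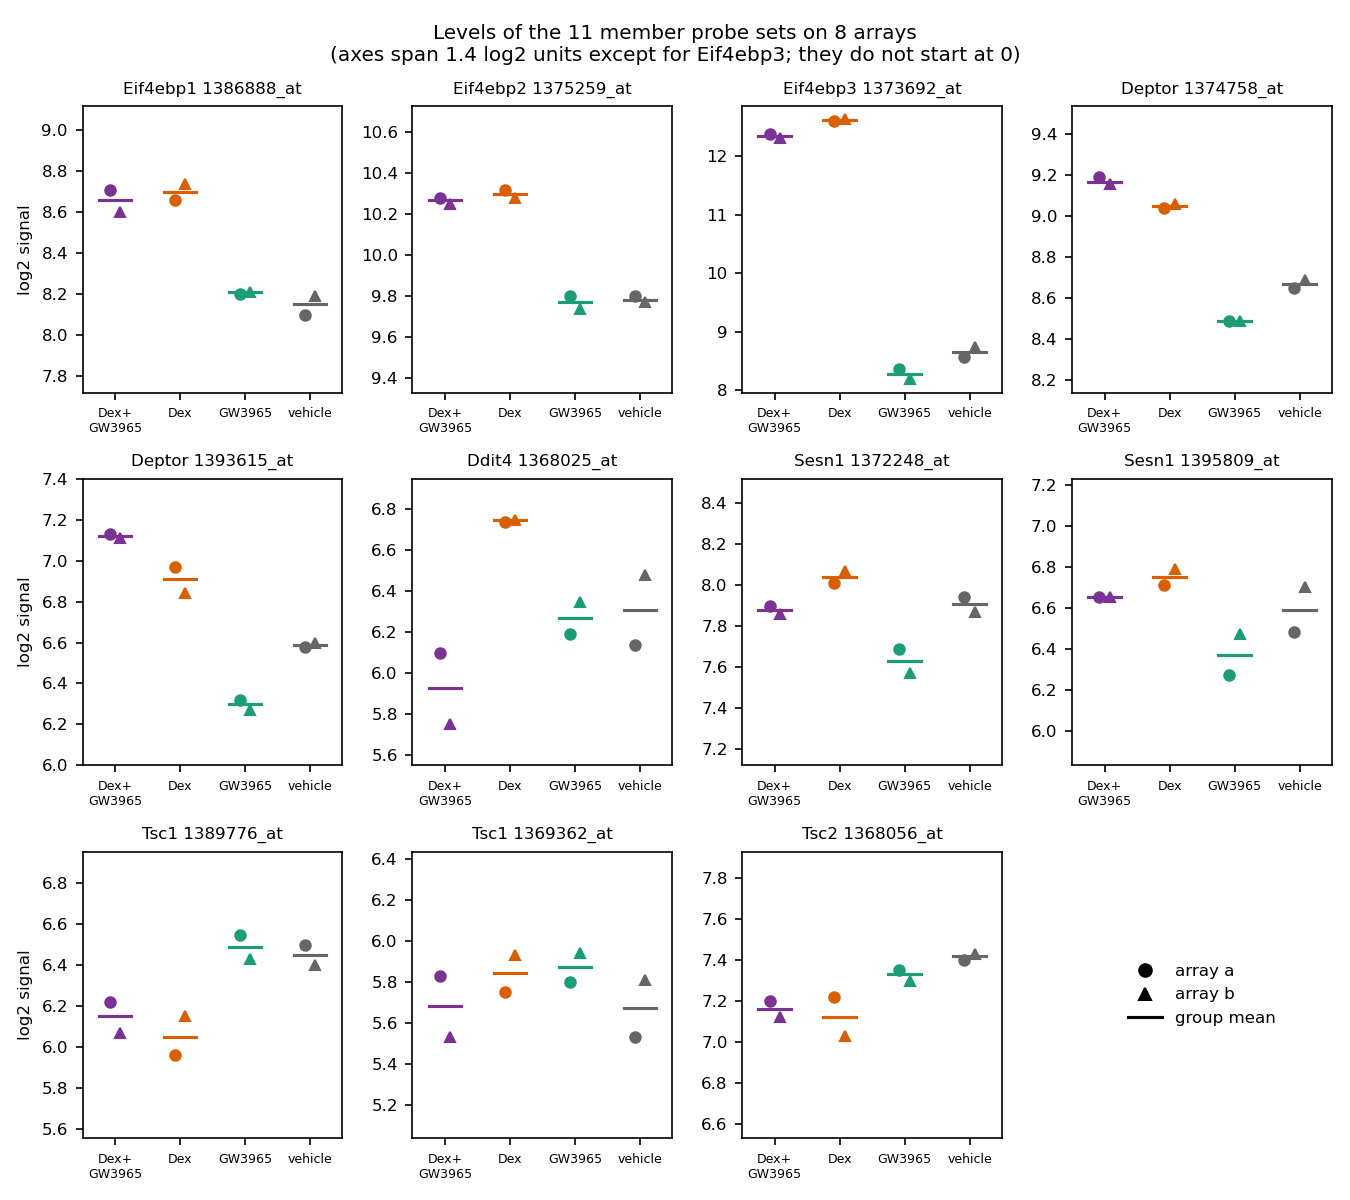
Log2 signal (vertical axes) of the 11 probe sets in the groups Dex+GW3965, Dex, GW3965 and vehicle, with a circle for array a, a triangle for array b and a line for the group mean. The 3 Eif4ebp genes and both Deptor probe sets stand higher on the arrays with dexamethasone, whereas Ddit4 is highest in Dex at 6.74 and 6.75 and lowest in Dex+GW3965 at 6.10 and 5.75.

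Deptor, the inhibitor that binds the kinase, was read by 2 probe sets that ordered the groups alike: Dex+GW3965, Dex, vehicle, GW3965. The brighter (1374758_at) measured 9.19 and 9.16 in Dex+GW3965, 9.04 and 9.06 in Dex, 8.49 and 8.49 in GW3965, and 8.65 and 8.69 in vehicle. The other (1393615_at) measured 7.13 and 7.11 in Dex+GW3965, 6.97 and 6.84 in Dex, 6.32 and 6.27 in GW3965, and 6.58 and 6.60 in vehicle. On neither probe set did any 2 groups overlap. Dex stood above vehicle by 0.38 (SE 0.05) and 0.32 (SE 0.09), and Dex+GW3965 by 0.50 (SE 0.05) and 0.53 (SE 0.09). GW3965 lay below vehicle by 0.18 (SE 0.05) and 0.30 (SE 0.09), the opposite direction. The difference with dexamethasone was larger in the presence of the agonist: Dex+GW3965 exceeded GW3965 by 0.68 and 0.83, and the interaction, the Dex+GW3965 minus GW3965 difference less the Dex minus vehicle difference, was 0.31 (SE 0.07) and 0.51 (SE 0.12).

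Ddit4 (1368025_at), which acts through TSC2, measured 6.10 and 5.75 in Dex+GW3965, 6.74 and 6.75 in Dex, 6.19 and 6.35 in GW3965, and 6.14 and 6.48 in vehicle. It was highest in Dex and lowest in Dex+GW3965, with GW3965 and vehicle overlapping between them. Dex stood above vehicle by 0.44 (SE 0.13), while Dex+GW3965 lay below vehicle by 0.38 (SE 0.13), below GW3965 by 0.34 (SE 0.13) and below Dex by 0.82 (SE 0.13), or 1.76-fold. The interaction was -0.78 (SE 0.18). The arrays of Dex+GW3965 differed by 0.35 and those of vehicle by 0.34, the widest gaps of any of these probe sets, and its lowest array, 5.75, came close to 5.49, the mean of the array medians that serves here as the background level because the file has no detection calls.

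Sesn1, a stress-induced sestrin, was likewise read by 2 probe sets. The brighter (1372248_at) measured 7.90 and 7.86 in Dex+GW3965, 8.01 and 8.07 in Dex, 7.69 and 7.57 in GW3965, and 7.94 and 7.87 in vehicle. The other (1395809_at) measured 6.65 and 6.65 in Dex+GW3965, 6.71 and 6.79 in Dex, 6.27 and 6.47 in GW3965, and 6.48 and 6.70 in vehicle. Both placed GW3965 lowest and Dex highest. GW3965 lay below vehicle by 0.28 (SE 0.07) and 0.22 (SE 0.10), Dex stood above vehicle by 0.14 (SE 0.07) and 0.16 (SE 0.10), and Dex+GW3965 overlapped vehicle on both probe sets.

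Tsc1 and Tsc2, which together form the GTPase-activating complex against Rheb, stood lower with dexamethasone on 2 of their 3 probe sets. Tsc2 (1368056_at) measured 7.20 and 7.12 in Dex+GW3965, 7.22 and 7.03 in Dex, 7.35 and 7.30 in GW3965, and 7.40 and 7.43 in vehicle. Dex+GW3965 and Dex overlapped and both lay below the other groups, by 0.25 (SE 0.08) for Dex+GW3965 and 0.29 (SE 0.08) for Dex against vehicle. Tsc1 on its brighter probe set (1389776_at) measured 6.22 and 6.07 in Dex+GW3965, 5.96 and 6.15 in Dex, 6.55 and 6.43 in GW3965, and 6.50 and 6.40 in vehicle. It lay 0.30 (SE 0.11) lower in Dex+GW3965 and 0.40 (SE 0.11) lower in Dex than in vehicle, and GW3965 overlapped vehicle. The dimmer probe set of Tsc1 (1369362_at) measured 5.83 and 5.53 in Dex+GW3965, 5.75 and 5.93 in Dex, 5.80 and 5.94 in GW3965, and 5.53 and 5.81 in vehicle. All of its groups overlapped, its Dex minus vehicle difference was 0.18 (SE 0.13), and 2 of its arrays, at 5.53, were next to the background level, so the probe sets of Tsc1 disagreed.

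**Figure D2:**
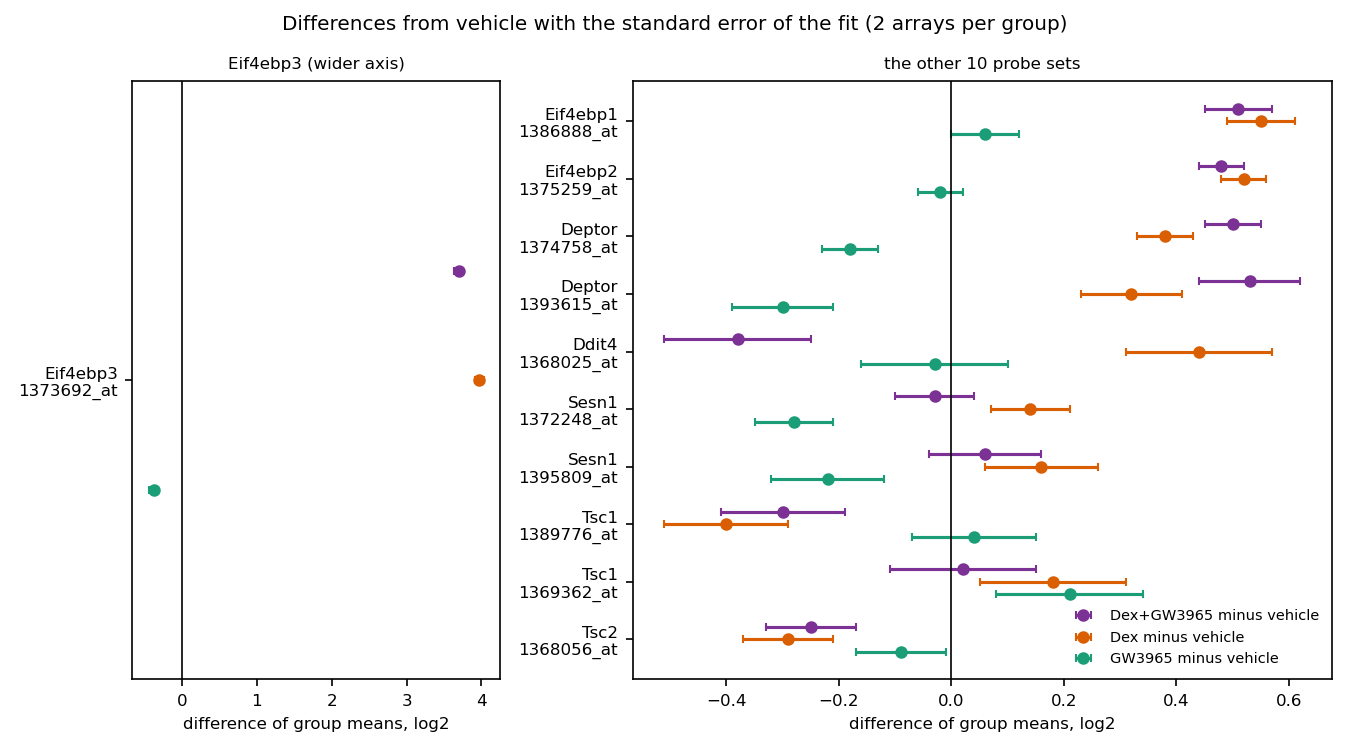
Difference of each group mean from vehicle (horizontal axes, log2, wider for Eif4ebp3), with points for Dex+GW3965, Dex and GW3965 and bars for the standard error of the fit. The Eif4ebp and Deptor points of both dexamethasone groups lie right of 0, those of Tsc2 lie left of it, and Ddit4 lies at -0.38 in Dex+GW3965 and 0.44 in Dex.

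In the fit across all 16253 probe sets, in which a probe set passed at an adjusted p under 0.05, 8 of the 11 probe sets passed in Dex+GW3965 against vehicle (5 higher and 3 lower), 8 in Dex against vehicle (6 and 2) and 4 in GW3965 against vehicle (all lower). Of all probe sets, 36.8%, 41.9% and 20.5% passed in these comparisons. In Dex+GW3965 against Dex 2 of the 11 passed, both lower, against 22.8% of all, in Dex+GW3965 against GW3965 9 passed (7 higher and 2 lower), against 35.8% of all, and in the interaction 3 passed (2 higher and 1 lower), against 22.8% of all. The probe sets were chosen on these same contrasts, so nothing is read from these counts. The arrays of the groups did not overlap for 10 of the 11 in Dex against vehicle, 8 in Dex+GW3965 and 7 in GW3965, where 69.2%, 65.4% and 57.7% of all probe sets did not. The median difference over the 11 was 0.32 for Dex, 0.06 for Dex+GW3965 and -0.09 for GW3965 against vehicle, beside -0.01, -0.02 and -0.03 over all probe sets.

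**Figure D3:**
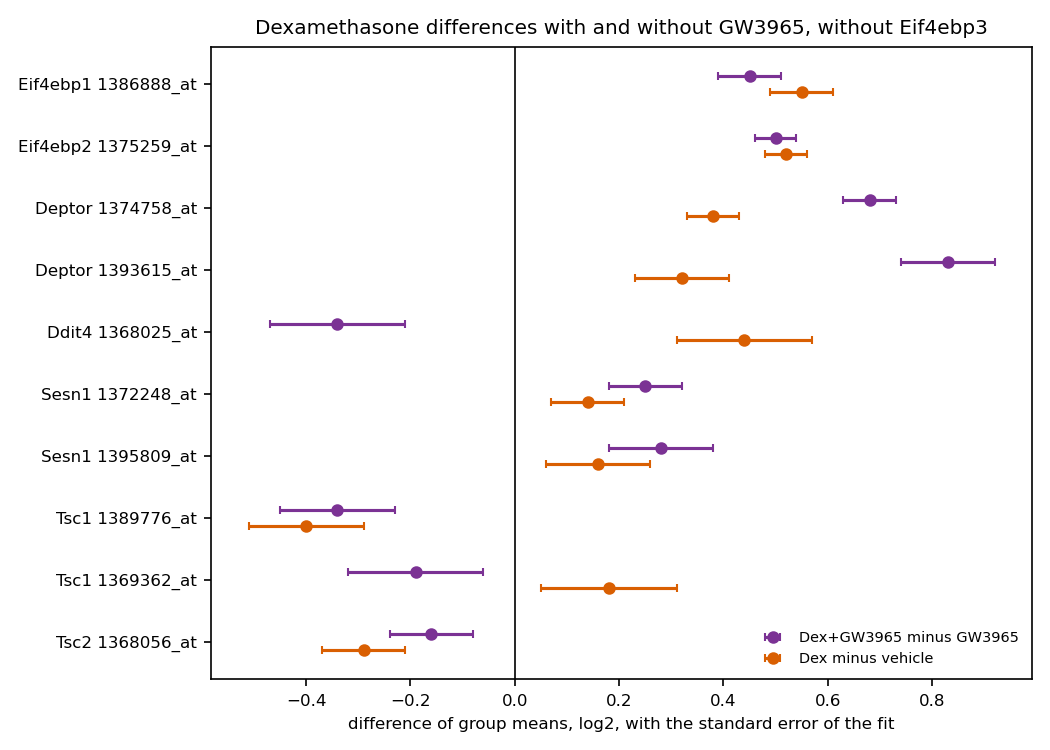
Dex+GW3965 minus GW3965 and Dex minus vehicle (horizontal axis, difference of group means, log2, with the standard error of the fit) for the 10 probe sets other than Eif4ebp3. The pair of points nearly coincides for Eif4ebp2 (0.50 and 0.52), the point with GW3965 lies further right for Deptor (0.83 and 0.32 on 1393615_at), and the points fall on either side of 0 for Ddit4 (-0.34 and 0.44).

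Only Eif4ebp3 had group means that spanned at least 1 log2 unit, the width set for comparing patterns. Its pattern was compared with 813 probe sets of other genes whose group means also spanned at least that width. The 3 genes whose values ran closest to Eif4ebp3 over the 8 arrays were Prodh, Hacl1 and Gpt. Prodh is the mitochondrial enzyme that begins proline breakdown (Pearson r = 0.9996). Hacl1 is a peroxisomal lyase of branched fatty acid breakdown (r = 0.9985), and Gpt is an alanine aminotransferase (r = 0.9983). These correlations describe 8 arrays in 2 clusters, with and without dexamethasone. Gpt averaged 12.50 in Dex+GW3965, 12.68 in Dex, 9.87 in GW3965 and 10.28 in vehicle. Prodh averaged 10.88, 10.94, 9.74 and 9.84 and Hacl1 11.71, 11.76, 10.12 and 10.22 in the same groups. In all 3 genes the group means ran in the order of those of Eif4ebp3, over a narrower range.

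In the RefSeq annotation of GRCr8, Eif4ebp3 lies between Ankhd1 and Sra1, and in human a readthrough transcript that joins ANKHD1 and EIF4EBP3 is annotated. These neighbours were examined after the values of Eif4ebp3 had been seen. The brightest probe set of Ankhd1, which encodes a large ankyrin repeat protein, measured 7.93 and 7.94 in Dex+GW3965, 7.85 and 7.76 in Dex, 7.80 and 7.83 in GW3965, and 7.89 and 7.94 in vehicle. It did not pass in Dex against vehicle (-0.11, SE 0.07, adjusted p = 0.19 from limma), nor did the other probe set of Ankhd1 that was bright enough to test (0.18, SE 0.12, adjusted p = 0.25). Sra1, named for its steroid receptor activator RNA, rose by 0.45 in Dex against vehicle (SE 0.05, adjusted p = 3.2e-07) and by 0.35 in Dex+GW3965 against vehicle (SE 0.05, adjusted p = 7.6e-06), far less than Eif4ebp3.

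Around these genes, 137 others were listed, here called pathway genes, and 107 were measured, each on its brightest probe set. One list holds transcription factors, glucocorticoid targets and stress genes, not all of them parts of the mTOR pathway. Against vehicle, 21 were higher and 26 lower in Dex+GW3965, 27 higher and 26 lower in Dex, and 7 higher and 17 lower in GW3965. The list with the glucocorticoid targets supplied 8 of the 21 higher genes in Dex+GW3965, 11 of the 27 in Dex and 4 of the 7 in GW3965. Of the lower genes it supplied 0, 1 and 4. Of all 9829 genes, 16.2% were higher and 23.7% lower in Dex+GW3965, 18% and 26.5% in Dex, and 5.9% and 15.9% in GW3965. These shares also stand beside the counts of each list below. Relative to Dex, 14 were higher and 21 lower in Dex+GW3965, beside 14.2% and 10.4% of all genes, and relative to GW3965 25 were higher and 20 lower, beside 20.4% and 18.7%. The interaction was positive for 11 and negative for 14, beside 16.9% and 7.3%. Of the genes named below, Akt1s1, Depdc5, Prkaa2, Flcn, Lamtor4, Insr, Eif4g2, Eif4a1, Pdcd4, Mknk2, Eef2, Rps6, Rpl7, Ulk1, Ulk2 and Bnip3 fall outside the rule for naming genes and were chosen as examples of their lists after their values were seen. Some calls said below to be lost without an array were also lost with no intensity trend in the fit. These were calls of Mtor, Eif4a1, Ulk1 and Ppp1r15a and that of Akt1s1 in GW3965. The last was also lost with quantile normalization or with the letter as a block.

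The kinase itself rose in Dex. Mtor measured 7.49 and 7.40 in Dex+GW3965, 7.81 and 7.66 in Dex, 7.21 and 7.18 in GW3965, and 7.21 and 7.41 in vehicle. It rose by 0.43 in Dex against vehicle (SE 0.08, adjusted p = 0.00048) and stood 0.29 lower in Dex+GW3965 than in Dex (SE 0.08, adjusted p = 0.017), a call that was lost without array a of Dex or array b of Dex+GW3965 (adjusted p up to 0.18 over the alternatives). Dex+GW3965 overlapped vehicle (0.13, adjusted p = 0.25). Of the 10 measured genes of the mTOR complexes and Rheb, the only other call against vehicle was Akt1s1, which encodes the inhibitory subunit PRAS40 and fell by 0.22 in Dex+GW3965, 0.28 in Dex and 0.18 in GW3965. Without array a of Dex+GW3965 its call in that group was lost (adjusted p up to 0.08), and without any array of GW3965 or vehicle so was its call in GW3965 (adjusted p up to 0.23). Rptor, the scaffold of complex 1, stood at -0.18 in Dex+GW3965, 0.11 in Dex and -0.01 in GW3965 against vehicle (adjusted p = 0.27, 0.5 and 0.96), and Rheb at -0.04, 0.00 and 0.05 (adjusted p = 0.5, 0.94 and 0.44), so that neither passed.

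Of 17 other brakes measured, 3 were higher and 1 lower in Dex+GW3965 against vehicle, 4 higher and 4 lower in Dex, and 2 higher and 1 lower in GW3965, with a median difference of 0.00 in Dex+GW3965 and in Dex. Without array b of Dex+GW3965, 1 was higher and 0 lower in that group, and without array b of vehicle or array a of Dex, 2 were lower in Dex. In GW3965, 1 was higher without array a of vehicle or either array of GW3965, and 0 were lower without array a of vehicle or array b of GW3965, against 2 lower without array b of vehicle. Sesn2, the leucine-sensing sestrin, measured 7.84 and 7.88 in Dex+GW3965, 8.32 and 8.31 in Dex, 7.90 and 7.87 in GW3965, and 7.85 and 8.01 in vehicle. It was high in Dex alone. It rose by 0.38 in Dex (SE 0.07, adjusted p = 0.00017), was 0.45 lower in Dex+GW3965 than in Dex (SE 0.07, adjusted p = 8.6e-05) and at -0.07 in Dex+GW3965 against vehicle (adjusted p = 0.45). Bmt2, the S-adenosylmethionine sensor that restrains the complex, fell by 0.48 in Dex (SE 0.08, adjusted p = 0.00012) and by 0.35 in GW3965 (SE 0.08, adjusted p = 0.0049), a call that was lost without array a of vehicle or array b of GW3965 (adjusted p up to 0.11). It stood at -0.20 in Dex+GW3965 (adjusted p = 0.062). Depdc5, a subunit of the GATOR1 brake, rose by 0.38 in Dex+GW3965 and 0.56 in Dex, and Prkaa2, a catalytic subunit of the AMP-activated kinase, by 0.23 and 0.55 in the same groups. The call of Depdc5 in Dex+GW3965 was lost without array b of that group (adjusted p up to 0.051). Sesn3 and Ddit4l, relatives of Sesn1 and Ddit4, were too dim to be tested.

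In the Rag and lysosome arm, through which amino acids reach the complex, 3 of 15 measured genes were higher and 3 lower in Dex+GW3965 against vehicle, 5 higher and 3 lower in Dex, and 1 higher and 4 lower in GW3965. Fnip2, a partner of folliculin, measured 9.24 and 9.30 in Dex+GW3965, 8.97 and 8.96 in Dex, 8.51 and 8.52 in GW3965, and 8.43 and 8.46 in vehicle. Its order was Dex+GW3965, Dex, GW3965, vehicle, with rises of 0.83 in Dex+GW3965 (SE 0.05, adjusted p = 7.2e-10) and 0.52 in Dex (SE 0.05, adjusted p = 2.3e-07) against vehicle. Fnip1 rose by 0.74 in Dex+GW3965 (SE 0.10, adjusted p = 1.4e-05) and 0.62 in Dex (SE 0.10, adjusted p = 8.3e-05), and Flcn, folliculin itself, by 0.29 in Dex+GW3965, 0.37 in Dex and 0.29 in GW3965. The last of these was lost without array b of GW3965 (adjusted p up to 0.081). Lamtor4, a subunit of the Ragulator scaffold, fell by 0.48 in Dex+GW3965, 0.47 in Dex and 0.29 in GW3965.

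On the insulin side, 8 genes were measured and few passed. Irs2, the insulin receptor substrate of liver, measured 6.66 and 6.60 in Dex+GW3965, 6.13 and 6.09 in Dex, 6.13 and 6.05 in GW3965, and 6.69 and 6.58 in vehicle. It fell with either compound alone, by 0.53 in Dex (SE 0.10, adjusted p = 0.00021) and 0.54 in GW3965 (SE 0.10, adjusted p = 0.00051), and stood at -0.01 in Dex+GW3965 (adjusted p = 0.96). Insr, the insulin receptor, rose by 0.40 in Dex+GW3965 against vehicle.

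The next list holds the cap-binding complex, which the 4E-BPs restrain, and the S6 kinase arm. Of 17 measured genes, 2 were higher and 10 lower in Dex+GW3965 against vehicle, 3 higher and 8 lower in Dex, and 3 lower in GW3965 (0 without either array of GW3965), with medians of -0.17, -0.12 and -0.06 beside -0.02, -0.02 and -0.03 over all genes. Eif4e, the cap-binding target of the 4E-BPs, measured 9.51 and 9.68 in Dex+GW3965, 9.81 and 9.77 in Dex, 9.70 and 9.74 in GW3965, and 9.86 and 9.83 in vehicle. It fell by 0.25 in Dex+GW3965 (SE 0.05, adjusted p = 0.0011) and stood at -0.05 in Dex (adjusted p = 0.47). A dimmer probe set (1386997_at) rose by 0.42 in Dex (SE 0.13, adjusted p = 0.015), at means of 5.59 in Dex and 5.17 in vehicle. In Dex+GW3965 that probe set stood at -0.02 (adjusted p = 0.93) and another dim one (1394529_at) at -0.03 (adjusted p = 0.87). Both lay around the background level, and the probe sets of Eif4e disagreed in Dex and in Dex+GW3965. Eif4g2, a relative of the scaffold eIF4G, fell by 0.51 in Dex+GW3965 and 0.50 in Dex, and the helicase Eif4a1 by 0.53 and 0.17, the last of which was lost without array b of Dex (adjusted p up to 0.066). Pdcd4, an inhibitor of that helicase read by a probe set that may match other transcripts, fell by 0.40 and 0.50, whereas Mknk2, a kinase of eIF4E, rose by 0.62 and 0.70. Rps6kb1, the S6 kinase, stood at 0.09 in Dex+GW3965, 0.05 in Dex and 0.00 in GW3965 (adjusted p = 0.45, 0.7 and 0.98).

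A further list held ribosomal proteins and elongation factors, whose mRNAs belong to the class most dependent on this pathway for translation. Of its 12 measured genes, 10 fell in Dex+GW3965, 6 in Dex and 1 in GW3965 against vehicle, and none rose. Without array a of vehicle 3 fell in GW3965, and without either array of GW3965 0 did. The medians were -0.22, -0.12 and -0.06, beside -0.02, -0.02 and -0.03 over all genes. Of all genes, 23.7% fell in Dex+GW3965, 26.5% in Dex and 15.9% in GW3965. The falls were small, at most 0.34 for Rpl7 in Dex+GW3965. These genes have many processed copies in the genome, and another 11 of the 23 listed had no probe set with their symbol alone, so their values are uncertain. The elongation factor Eef2 and the ribosomal protein Rps6 were counted in the cap-binding list instead. Eef2 rose by 0.16 in Dex+GW3965 and 0.28 in Dex (adjusted p = 0.0017 and 3.9e-06). Rps6 stood at -0.24 and -0.14 in these groups (adjusted p = 2.1e-05 and 0.0032). Of 13 measured autophagy and lysosome genes, 4 were higher and 1 lower in Dex+GW3965, 3 higher and 2 lower in Dex (1 lower without array b of Dex), and 2 lower in GW3965 (0 without array a of GW3965 and 1 without array b of GW3965 or array b of vehicle). Ulk1, the kinase that starts autophagy, rose by 0.23 in Dex+GW3965, lost without array a of that group or of vehicle (adjusted p up to 0.17), and by 0.45 in Dex, its relative Ulk2 fell by 0.45 in Dex, and Bnip3, a mitophagy receptor, rose by 0.39 in Dex+GW3965 and 0.55 in Dex.

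**Figure D4:**
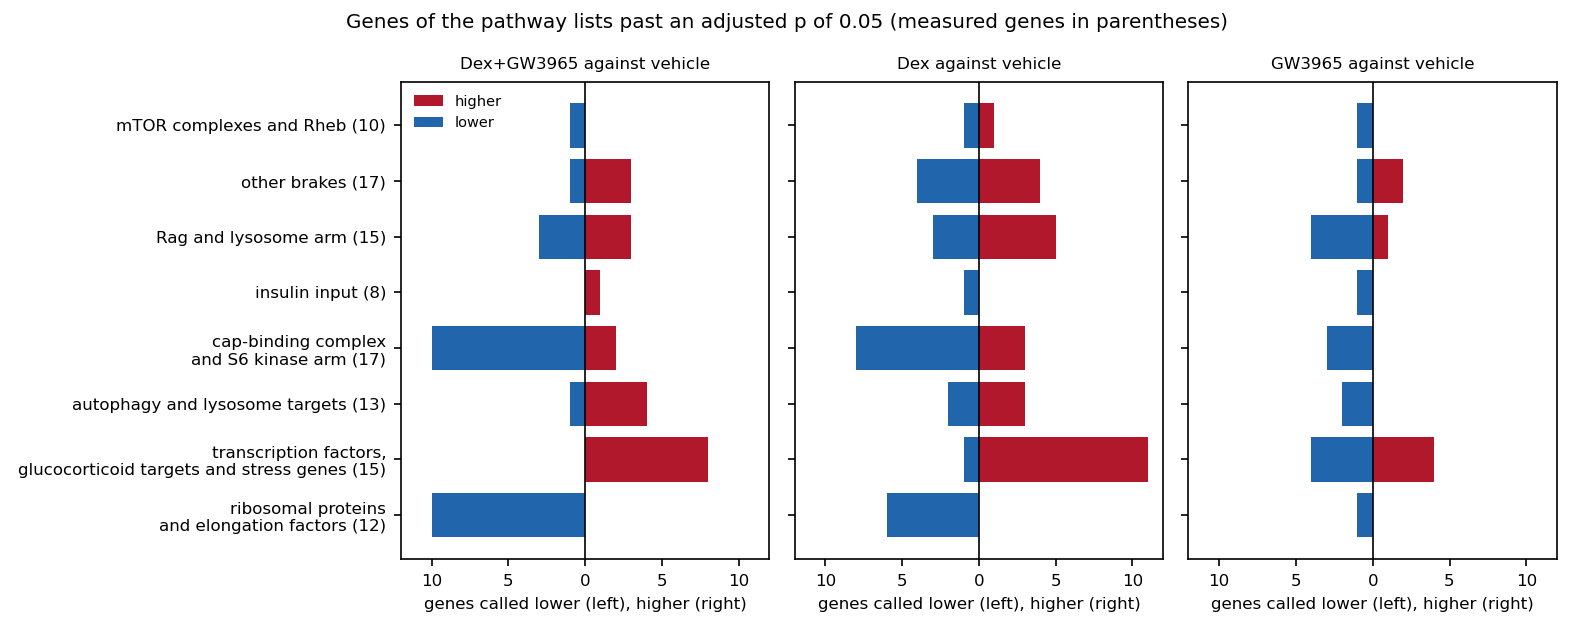
Number of genes per pathway list that passed as lower (left of 0) or higher (right of 0) than vehicle in Dex+GW3965, Dex and GW3965, with the number measured in parentheses. The cap-binding list has 10 lower genes in Dex+GW3965 and 8 in Dex, and the ribosomal list has none higher in any panel.

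Of 15 measured transcription factors, glucocorticoid targets and stress genes, 8 were higher and none lower in Dex+GW3965 against vehicle. In Dex 11 were higher and 1 lower, and in GW3965 4 were higher and 4 lower. The medians were 0.27, 0.56 and 0.06, beside -0.02, -0.02 and -0.03 over all genes. Of all genes, 16.2%, 18% and 5.9% were higher and 23.7%, 26.5% and 15.9% lower in Dex+GW3965, Dex and GW3965. In GW3965, leaving out any array of GW3965 or vehicle left 2 higher, and leaving out array b of either group left 2 lower. Fkbp5, a chaperone of the GR and a standard readout of it, measured 8.38 and 8.36 in Dex+GW3965, 9.83 and 9.71 in Dex, 6.27 and 6.25 in GW3965, and 6.56 and 6.62 in vehicle. It rose by 1.78 in Dex+GW3965 (SE 0.07, adjusted p = 7.9e-13) and 3.18 in Dex (SE 0.07, adjusted p = 2e-16). Dex+GW3965 lay 1.40 below Dex for Fkbp5 (adjusted p = 7.4e-11), 0.69 for Tsc22d3, which encodes the glucocorticoid-induced leucine zipper (adjusted p = 5.5e-08), and 0.75 for Klf15, a glucocorticoid-induced factor of amino acid use (adjusted p = 3.4e-09). Klf15 was also 0.63 lower in GW3965 than in vehicle (SE 0.05, adjusted p = 4.4e-08), and its interaction did not pass on this probe set (-0.12, adjusted p = 0.24) but did on its other one (-0.46, adjusted p = 0.0083). For Eif4ebp3 the difference between Dex+GW3965 and Dex was -0.27. Nr3c1, the GR gene itself, fell by 0.75 in Dex (SE 0.06, adjusted p = 1.9e-08), stood at -0.15 in Dex+GW3965 (adjusted p = 0.077) and rose by 0.29 in GW3965 (SE 0.06, adjusted p = 0.0028), a call that was lost without array a of GW3965 (adjusted p up to 0.058). The other probe set of Nr3c1 bright enough to test did not pass in Dex (-0.25, SE 0.12, adjusted p = 0.094) or in Dex+GW3965 against Dex (0.08, adjusted p = 0.68, where the brighter gave 0.60), and rose by 0.37 in GW3965 (adjusted p = 0.029). Both probe sets passed as lower in Dex+GW3965 against GW3965 (-0.43 on the brighter and -0.54, adjusted p = 2.1e-05 and 0.0011). They shared the sign in Dex and differed in size there and in Dex+GW3965 against Dex.

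Per1, a clock gene under the GR, rose by 0.73 in Dex (SE 0.10, adjusted p = 1.7e-05) and was at 0.20 in Dex+GW3965 (adjusted p = 0.14). Foxo1, a forkhead factor that insulin holds in check, rose by 0.49 in Dex+GW3965 (SE 0.08, adjusted p = 0.0001) and 0.96 in Dex (SE 0.08, adjusted p = 2.6e-08) and fell by 0.37 in GW3965 (SE 0.08, adjusted p = 0.0033), a call that was lost without array b of GW3965 or of vehicle (adjusted p up to 0.053). The other probe set of Foxo1 rose by 0.68 in Dex (adjusted p = 1.6e-05) but passed neither in Dex+GW3965 (0.24, adjusted p = 0.057) nor in GW3965 (0.05, adjusted p = 0.76). The interaction of Foxo1 passed on this probe set (-0.49, adjusted p = 0.015) but not on the brighter one (-0.10, adjusted p = 0.61). Atf4, a factor that drives the response to amino acid shortage, rose by 0.16, 0.29 and 0.24 in Dex+GW3965, Dex and GW3965 (adjusted p = 0.0044, 1.6e-05 and 0.00048). Its call in Dex+GW3965 was lost with no intensity trend in the fit (adjusted p = 0.062). Atf5 rose by 0.70 in Dex+GW3965 and 0.56 in Dex (adjusted p = 2e-10 and 3.8e-09). Trib3, a pseudokinase induced by Atf4 and read by a probe set that may match other transcripts, rose by 0.94 in Dex+GW3965 (SE 0.09, adjusted p = 8.4e-08) and 1.01 in Dex (SE 0.09, adjusted p = 2.3e-08). Asns, asparagine synthetase, rose by 0.64 in Dex (SE 0.13, adjusted p = 0.0005) and stood at 0.32 in Dex+GW3965 (adjusted p = 0.057). In GW3965 it stood at -0.47 (SE 0.13, adjusted p = 0.014), and its mean there, 5.17, was under the background level. That call was lost under some alternatives, with differences between -0.57 and -0.38. Ppp1r15a, a stress-induced phosphatase subunit, rose by 0.41 in GW3965 (SE 0.13, adjusted p = 0.031), a call that was lost without either array of vehicle or array b of GW3965 (adjusted p up to 0.3). It stood at 0.09 in Dex+GW3965 and 0.23 in Dex (adjusted p = 0.62 and 0.17). Ddit3, another stress-induced factor and named after its values were seen, stood at -0.15 in Dex+GW3965 and -0.07 in Dex (adjusted p = 0.18 and 0.54).

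**Figure D5:**
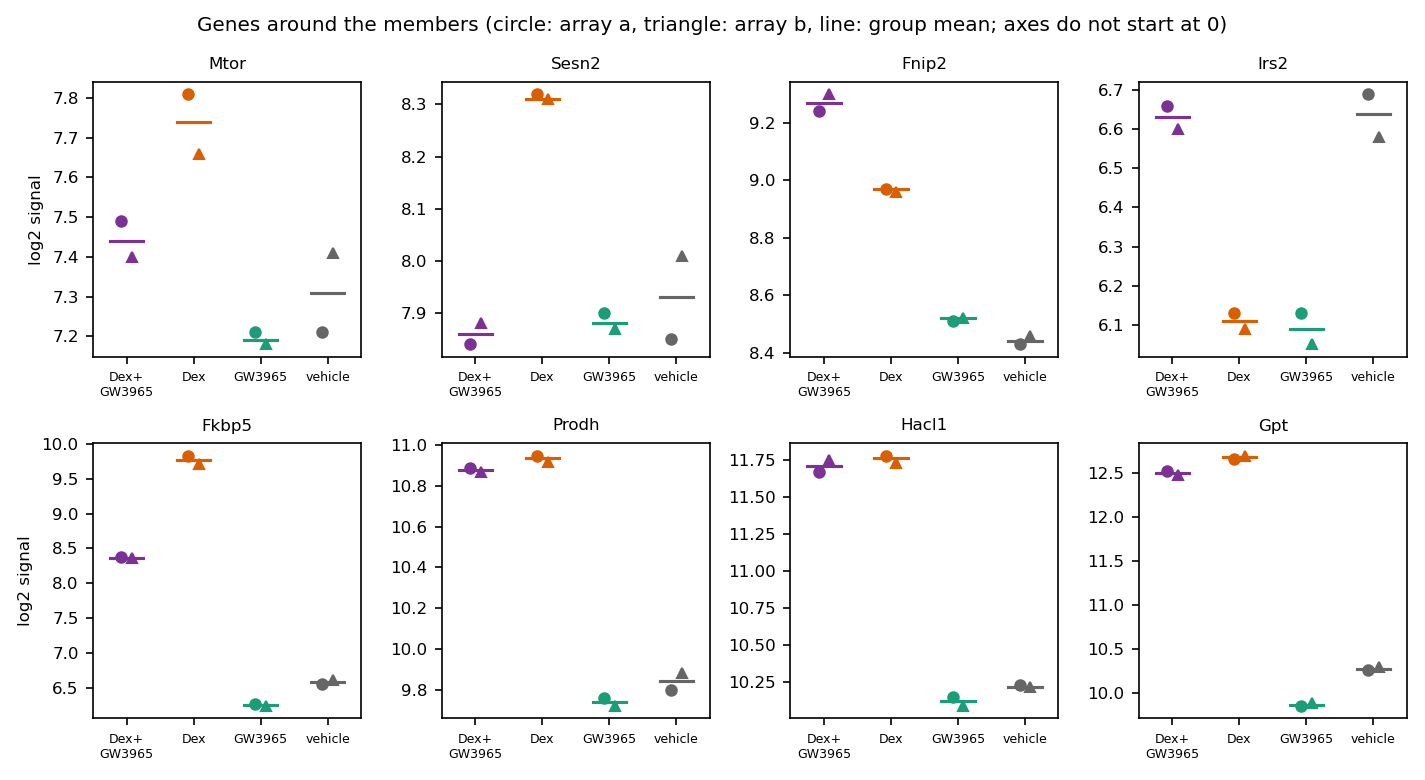
Log2 signal (vertical axes) of Mtor, Sesn2, Fnip2, Irs2, Fkbp5, Prodh, Hacl1 and Gpt in the groups Dex+GW3965, Dex, GW3965 and vehicle, with a circle for array a, a triangle for array b and a line for the mean. Sesn2 stands high in Dex alone at 8.32 and 8.31, Irs2 is lower in Dex and GW3965 than in the other groups, and Prodh, Hacl1 and Gpt divide the arrays by dexamethasone as Eif4ebp3 does.

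The arrays showed liver throughout: the summed linear signal of 5 hepatocyte markers was 102383 in Dex+GW3965, 100979 in Dex, 94753 in GW3965 and 95727 in vehicle. Markers of other cells moved with the groups. Of 5 stellate cell markers, 4 were lower in each of Dex+GW3965, Dex and GW3965 against vehicle, beside 23.7%, 26.5% and 15.9% of all genes. The summed signal of the 5 was 2661, 2730, 3908 and 4812 in Dex+GW3965, Dex, GW3965 and vehicle. Both neutrophil markers measured, of 3 listed, were lower in each treated group. Their sums were 83, 59, 53 and 209 in Dex+GW3965, Dex, GW3965 and vehicle. In the treated groups S100a8 averaged 4.54, 4.21 and 4.39, under the background level, and S100a9 5.91, 5.35 and 5.02, around it. Sinusoidal endothelial sums were 1792, 2101, 2544 and 2617 and Kupffer cell sums 1875, 1788, 2261 and 1739 in these groups. A linear sum mostly follows its brightest markers. Of 4 sinusoidal endothelial markers, 3 were lower in Dex+GW3965 against vehicle, 2 lower in Dex, and 1 higher and 1 lower in GW3965. Of 4 Kupffer cell markers, 1 was higher and 2 lower in Dex+GW3965, 1 higher and 1 lower in Dex, and 1 higher in GW3965. All 3 measured erythrocyte markers were lower in Dex+GW3965 against vehicle, whereas 1 was lower in Dex, and 2 were higher and 1 lower in GW3965. Their sums were 8789, 12290, 18158 and 11888 in Dex+GW3965, Dex, GW3965 and vehicle. The part of these cells in the levels above was not tested.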

How the data were processed

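Total RNA of whole rat liver was measured on 8 arrays, grouped by the labels. The authors deposited log2 signals for 31099 probe sets, for which, per the methods, probes were first assigned anew to UniGene clusters and only perfect-match probes were used, corrected by MAS background subtraction. MAS5 appears in the submitters' processing notes with no version. The log2 scale was inferred from the values, which lie between 2.497 and 14.95. Array medians lay between 5.48 and 5.52, so nothing was normalized again. The file holds no detection calls, and the number of arrays limits the precision.

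Here, 57 control probe sets were left out, and 16253 of 31042 were kept because their signal exceeded the array median on 2 or more arrays. A group means model over all 8 arrays was fitted with limma 3.58.1 in R 4.3.3 (intensity trend, 4 residual and 12.7 prior degrees of freedom), with Benjamini-Hochberg adjustment over the 16253 and a threshold of 0.05. The fit was tested on simulated data. Symbols came from the platform annotation, and 20758 of 20826 single symbols were matched by identifier. The members, lists and tests were chosen with earlier results of these data known. Every member probe set is reported. Of the pathway lists, the 6 largest called changes without overlap between groups were named for each comparison with vehicle and for Dex+GW3965 against Dex, plus 10 fixed names. Alternatives were quantile normalization, other filters, no trend, the letter as a block, the mean of a gene's probe sets, the methods' t-test and leaving out each array.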

Additional observations from a re-analysis of the deposited data

Results flagged for a closer look

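Ddit4 was flagged because both arrays of Dex lay above vehicle while both arrays of Dex+GW3965 lay below GW3965. The difference between these effects was -0.78. It was part of the fit across all probe sets, but its test is not read, since the gene was chosen on these arrays.

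Several pathway genes were flagged because the effect of dexamethasone differed between rats with and without GW3965 in limma's interaction term. It was smaller or more negative with GW3965 for Fkbp5 (-1.07, adjusted p = 3.8e-07), Per1 (-0.71, adjusted p = 0.0019), Tsc22d3 (-0.62, adjusted p = 1.7e-05), Ppp1r15a (-0.55, adjusted p = 0.039), Sesn2 (-0.40, adjusted p = 0.0053) and Atf4 (-0.37, adjusted p = 0.0002). It was larger or less negative with GW3965 for Irs2 (1.06, adjusted p = 1.8e-05), Bmt2 (0.63, adjusted p = 0.00071), Nr3c1 (0.31, adjusted p = 0.015), Atf5 (0.26, adjusted p = 0.0033) and Fnip2 (0.23, adjusted p = 0.035). The interaction calls of Ppp1r15a, Nr3c1, Atf5 and Fnip2 were each lost under at least 1 alternative, with adjusted p up to 0.2, 0.093, 0.071 and 0.21, and the others passed under all 13. A second probe set did not pass for Nr3c1, where the sign was opposite (-0.29, adjusted p = 0.22), or for Fnip2 (0.14, adjusted p = 0.7). For Foxo1 and Klf15 only the dimmer probe set passed (-0.49 and -0.46, adjusted p = 0.015 and 0.0083). With 2 arrays in a group no single array was tested as an outlier.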

How the results depend on the processing

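With 2 arrays per group the number of arrays limits every call. Of 594 recomputed differences of the member probe sets, under quantile normalization and without each array in turn, 549 moved by less than the spread between arrays, 45 moved by more and 0 reversed. Of 127 calls of the named genes and neighbours, 92 passed under all of 13 alternatives, 35 were lost under at least 1 and 0 changed sign. Under the methods' t-test at its own threshold the pathway genes called numbered 14 in Dex+GW3965, 21 in Dex and 11 in GW3965 against vehicle, 22 in Dex+GW3965 against Dex and 19 in Dex+GW3965 relative to GW3965, and the member probe sets 5, 4, 1, 1 and 5 in these comparisons. After Benjamini-Hochberg adjustment that test called 0 in each, against 47, 53, 24, 35 and 45 pathway genes and 8, 8, 4, 2 and 9 member probe sets from limma. Without an intensity trend the pathway genes called were 13 in GW3965 against vehicle, 16 in Dex+GW3965 against Dex and 10 in the interaction (25 with the trend), and the member probe sets 1 in Dex+GW3965 against Dex. Without each array in turn, the pathway genes called ranged between 40 and 48 in Dex+GW3965, 46 and 54 in Dex and 12 and 24 in GW3965 against vehicle, between 20 and 38 in Dex+GW3965 against Dex, between 36 and 47 against GW3965, and between 16 and 28 in the interaction. The member probe sets ranged between 5 and 8, 6 and 8, and 1 and 4 against vehicle in the same order, and between 6 and 9 in Dex+GW3965 against GW3965. The lowest values came without array b of GW3965 for GW3965 and the interaction, without array a of Dex for Dex+GW3965 against Dex (21 without array b of Dex, 22 without array b of Dex+GW3965), and without array b of Dex+GW3965 for its member probe sets. Without array a of GW3965, 14 pathway genes passed in GW3965, and without either array of vehicle or array a of GW3965, 2 member probe sets did.

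The letters a and b did not pair the arrays, since the correlations of the a minus b difference between groups lay between -0.232 and 0.083. With the letter as a replicate block, the pathway genes called were 48 in Dex+GW3965, 53 in Dex and 22 in GW3965 against vehicle, 32 in Dex+GW3965 against Dex, 43 in Dex+GW3965 relative to GW3965 and 26 in the interaction, and the member probe sets 8, 8, 4, 2, 8 and 3.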
